A study of Mus musculus with 48 samples.

Results

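The mitochondrial carriers of the Slc25 family were followed in mouse cells without HMGN1 and HMGN2, a pair of chromatin proteins that bind nucleosomes (DKO), and in wild-type (WT) cells while both became adipocytes. Members were taken by name alone, as every gene whose symbol is Slc25a followed by digits, which gave 47 of the 55450 genes in the count tables. The cells were C57BL/6 preadipocytes, grown out of the inguinal white fat of adult mice, and C57BL/6 embryonic fibroblasts (MEFs) grown out of whole embryos, so neither culture is a clone or a pure sorted cell type. WT and DKO cells received the same treatment. After confluence they were kept in 1 μM rosiglitazone, 5 μM dexamethasone, 0.5 mM IBMX, insulin at 0.5 μg/ml and 1 nM of the thyroid hormone T3, for 4 days in preadipocytes and 8 days in MEFs, and then in insulin and T3 alone, a schedule the study uses to drive cells towards brown-like fat. RNA was sequenced at days 0, 3, 6 and 9 in preadipocytes and at days 0, 4, 8 and 12 in MEFs, each day having 3 libraries of WT and 3 of DKO, 48 in all. The labels call the RNA polyadenylated, whereas the study's methods name a stranded total RNA library kit. The labels do not say that the 3 libraries of a group came from separate animals, although the study calls its replicates biological, so the p-values below measure the spread between these libraries.

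Slc25 proteins sit in the inner mitochondrial membrane, which is closed to most charged metabolites, and each moves a narrow set of substrates across it, often by exchanging one for another. They bring ADP, phosphate, fatty acyl groups and coenzymes to the enzymes of the matrix and carry citrate, ATP and amino acids out. In fat cells they serve opposite needs, since citrate leaving the matrix is the raw material of fatty acid synthesis while acylcarnitine entering it is fuel for oxidation, and white fat turning brown-like gains mitochondria.

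Summed counts per library ran from 18962483 to 36006696, with a median of 23978863. Hmgn2, one of the deleted genes, had at most 10 counts in any DKO library. Hmgn1 kept 77.8 to 101.6 CPM (counts scaled to the size of the library, mean of 3) in DKO cells, against 78.6 to 196.7 in WT cells. A gene-level count does not show which exons its reads came from, so it does not check that allele. Adipocyte markers were present in both cultures at the end (12 of 12 above the floor of 3 counts), and of 6 skeletal muscle markers Myod1 and Ckm were at that floor at every day in both. The summed muscle markers were 98.8 to 142 CPM in WT and 97.2 to 220.8 CPM in DKO preadipocytes at day 0 and at most 41.6 CPM in every other group. Epithelial markers summed to at most 11.9 CPM and endothelial markers to at most 31.4 CPM. Lists of 12 adipocyte, 9 fibroblast and 8 macrophage markers all moved with genotype. Summed adipocyte markers in preadipocytes at day 6 were 22257 to 27257 CPM in WT and 30229.6 to 37367 CPM in DKO, and at day 12 in MEFs 18724 to 19204 and 28622 to 30573 CPM. Fibroblast markers went the other way, with 9444 to 11273 and 2884 to 4490.3 CPM in preadipocytes and 14786 to 15355 and 8728 to 9462 CPM in MEFs, as did macrophage markers, with 5755 to 9848 and 2157 to 4744 CPM and 4634 to 4684 and 2968 to 3438 CPM. In such bulk samples, fewer cells of a type and less RNA per cell cannot be told apart. Among the libraries that stood apart on these markers were DKO replicate 2 of preadipocytes at day 9, WT replicate 1 of preadipocytes at day 3, WT replicate 1 of MEFs at day 4, and WT replicate 2 and DKO replicate 3 of MEFs at day 8. The DKO MEFs of day 0 were the least alike of all groups, with a chi-square over its degrees of freedom of 107 to 168 between pairs across genes.

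Of the 47 members, 38 had enough counts to be tested in all 14 comparisons, 4 in some of them (Slc25a18, Slc25a34, Slc25a43 and Slc25a48) and 5 in none. Those 5 were Slc25a2, Slc25a21, Slc25a31, Slc25a41 and Slc25a54, which never exceeded 20 counts in a library. Of the members, 20 had whole-number values in all libraries, among them the 5 never tested. Another 7 had fractional values, from reads shared with other genes, in more than 5 libraries. They included Slc25a5 (47 libraries), Slc25a37 (45), Slc25a3 (44), Slc25a36 (42) and Slc25a4 (12), so the levels and shares of these genes rest in part on how such reads were divided. The processed pseudogene Slc25a5-ps had at most 82 counts in a library in which Slc25a5 never fell below 3530. The exons of several members overlap genes on the opposite strand, and the strand setting of the counting is not given in the sources used here. Such overlap covered 31.3% of the exon bases of Slc25a35 (with Rangrf), 8.92% of Slc25a11 (with Rnf167) and 3.00% of Slc25a26 (with Lrig1), so those levels are less certain. Neither deleted locus is next to a member, the nearest on the Hmgn2 chromosome being Slc25a34 at 7.65 Mb.

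The DNA just before and after the start of 4 members is shown because the results below turn on them: Slc25a34, which went from almost no reads to a clear level, Slc25a20 and Slc25a10, which rose in both cultures, and Slc25a24, which fell. Each window runs from 250 bases upstream to 50 bases downstream of the RefSeq start (GRCm38.p6), at chr4:141623785-141624084 on the minus strand, chr9:108661886-108662185 on the plus strand, chr11:120491587-120491886 on the plus strand and chr3:109122899-109123198 on the plus strand. Capitals mark each GC box, GGGCGG on either strand, the letters known as a binding site of SP1.

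Slc25a34: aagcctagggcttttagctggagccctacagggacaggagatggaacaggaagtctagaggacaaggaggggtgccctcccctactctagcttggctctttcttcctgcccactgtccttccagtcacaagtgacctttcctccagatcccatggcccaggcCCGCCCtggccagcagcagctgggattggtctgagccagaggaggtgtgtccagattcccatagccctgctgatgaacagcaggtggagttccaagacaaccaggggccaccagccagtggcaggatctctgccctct
Slc25a20: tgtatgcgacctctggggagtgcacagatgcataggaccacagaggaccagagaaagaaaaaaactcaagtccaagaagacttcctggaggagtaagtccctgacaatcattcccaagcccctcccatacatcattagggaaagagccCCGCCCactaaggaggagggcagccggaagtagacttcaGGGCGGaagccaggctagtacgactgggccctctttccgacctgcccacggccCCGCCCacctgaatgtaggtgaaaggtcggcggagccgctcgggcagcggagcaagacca
Slc25a10: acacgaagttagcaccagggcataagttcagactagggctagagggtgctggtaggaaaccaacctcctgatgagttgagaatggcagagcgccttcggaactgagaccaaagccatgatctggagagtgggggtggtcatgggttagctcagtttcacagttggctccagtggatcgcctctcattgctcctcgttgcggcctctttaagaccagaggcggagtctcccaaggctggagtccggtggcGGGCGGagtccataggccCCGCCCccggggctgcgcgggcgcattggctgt
Slc25a24: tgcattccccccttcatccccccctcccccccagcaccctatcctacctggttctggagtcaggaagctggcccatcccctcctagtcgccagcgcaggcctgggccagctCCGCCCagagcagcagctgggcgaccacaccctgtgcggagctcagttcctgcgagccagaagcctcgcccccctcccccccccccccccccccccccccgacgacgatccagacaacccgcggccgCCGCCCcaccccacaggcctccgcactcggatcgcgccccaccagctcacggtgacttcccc

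Windows were found for 36 of the 47 members, 46 in number because some genes have several starts. The GC box was in 82.6% of them, against 35.7% of all 32851 RefSeq windows of this length. The other motifs were searched on both strands in the same way. The AP-1 letters TGANTCA were in 4.35% of member windows and 7.81% of all windows, and the CRE letters TGACGTCA in 4.35% and 1.79%. The CEBP letters TTGCNNAA were in 6.52% and 10.8%, and the nuclear receptor letters AGGTCA in 8.70% and 16.3%. The ERR letters TCAAGGTCA, which contain AGGTCA, and the NRF1 palindrome, named only, were in 0 member windows, and in 0.423% and 0.971% of all windows. Of these other motifs, the 4 windows shown hold only AGGTCA, once, on the opposite strand of Slc25a34. A match is a description of letters, and windows of genes with several starts overlap.

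Per kilobase, a few carriers made up most of the family. At day 0 the highest were the ADP/ATP carriers Slc25a4 and Slc25a5 and the phosphate carrier Slc25a3, which together supply the ATP synthase, in both cultures and genotypes. In WT preadipocytes at day 0, Slc25a4 stood at 145 ± 4.67 RPKM (CPM per kilobase of exon, mean ± SD, n = 3), Slc25a5 at 118 ± 8.41 RPKM and Slc25a3 at 46.4 ± 1.81 RPKM. By day 9 the order had become Slc25a5 at 379 ± 8.06 RPKM, Slc25a4 at 147 ± 1.19 RPKM, the citrate carrier Slc25a1 at 138 ± 10.1 RPKM, the glutathione carrier Slc25a39 at 70.1 ± 4.73 RPKM, Slc25a3 at 59.9 ± 0.957 RPKM and the 2-oxoglutarate carrier Slc25a11 at 58.1 ± 3.21 RPKM. Slc25a4 and Slc25a1 were neighbours in that order, with library values of 148, 146 and 147 and 133, 132 and 149.8 RPKM, and Slc25a3 and Slc25a11 lay within their spread of each other. These 6 made up 70.4% of the family's summed RPKM. In WT MEFs at day 12 the leaders were Slc25a5 at 233 ± 4.05 RPKM, Slc25a1 at 125 ± 9.71 RPKM and Slc25a4 at 121 ± 2.50 RPKM, followed by Slc25a3, the dicarboxylate carrier Slc25a10 and Slc25a39, and the 6 made up 67.8%. Slc25a1 and Slc25a4 did not differ there beyond their spread.

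**Figure D1:**
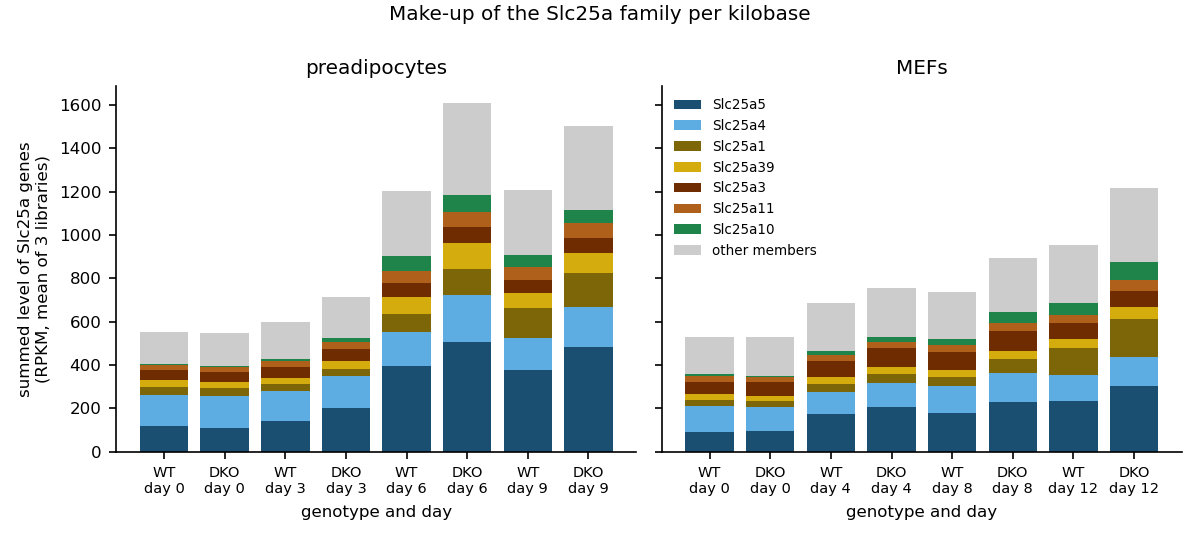
Summed level of the family in RPKM (vertical axis, mean of 3 libraries) by genotype and day, with each of the 7 most abundant carriers as a coloured layer and all other members in grey. The layers of Slc25a5 and Slc25a1 are thicker at the last day than at day 0 in both cultures, while that of Slc25a4 is similar at both.

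Slc25a4 and Slc25a5 exchange matrix ATP for cytosolic ADP, Slc25a4 being the form typical of heart and muscle and Slc25a5 that of proliferating and many other tissues. Slc25a5 rose over differentiation and Slc25a4 was not called. In WT preadipocytes Slc25a5 went from 205, 179 and 199 CPM at day 0 to 616, 639 and 615 CPM at day 9, with no overlap (log2 fold change 1.69 ± 0.08 (SE), adjusted p = 5.18e-07), and Slc25a4 from 354, 335 and 336 CPM to 349, 344 and 346 CPM (0.03 ± 0.06 (SE), adjusted p = 0.674). The share of Slc25a4 in the summed RPKM of the pair went from 55.2 ± 1.34% (SD, n = 3) to 28.0 ± 0.555% in WT preadipocytes and from 57.9 ± 1.85% to 27.8 ± 1.88% in DKO preadipocytes. In WT most of that shift lay between day 3, at 49.3 ± 5.30%, and day 6, at 28.7 ± 0.818%. In DKO the share was 42.4 ± 1.76% at day 3 and 30.0 ± 1.47% at day 6. In MEFs the share went from 56.6 ± 1.34% at day 0 to 36.03 ± 2.27% at day 4 in WT and from 54.1 ± 5.44% to 35.8 ± 1.154% in DKO. At day 8 it was 40.8 ± 1.06% in WT and 37.3 ± 2.57% in DKO MEFs. The cultures were sampled on different days, so which of them shifted first cannot be told. At day 12 the share was 34.3 ± 0.0989% in WT and 30.0 ± 0.57% in DKO MEFs, and the libraries of the 2 genotypes did not overlap. The shares are given as a description, since no test was planned on them.

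**Figure D2:**
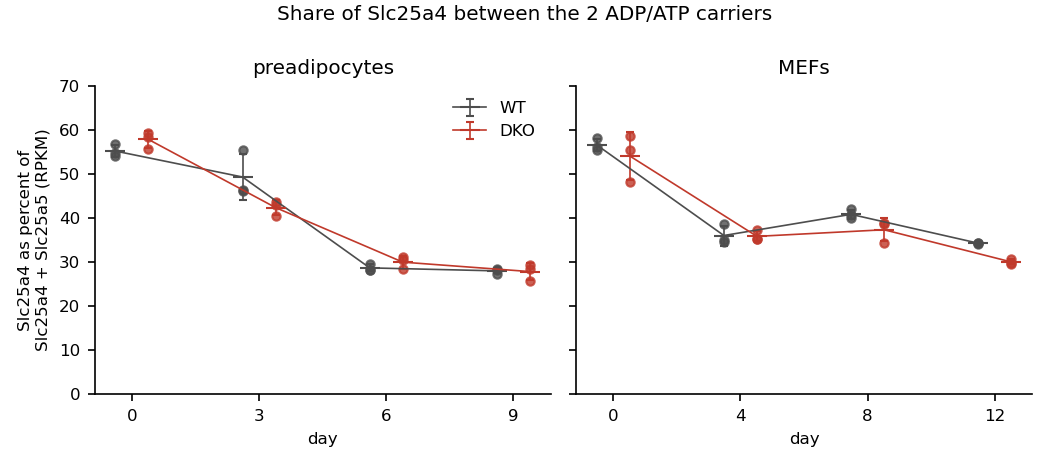
Share of Slc25a4 in the summed RPKM of Slc25a4 and Slc25a5 (vertical axis, percent) at each day (horizontal axis), with 1 point per library and lines through the mean with SD bars (n = 3), WT in grey and DKO in red. All libraries at day 0 lie above every library at the last day, in both cultures and genotypes.

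Over differentiation in WT preadipocytes, from day 0 to day 9, 25 of 40 members tested rose and 5 fell, where a rise or fall means a Benjamini-Hochberg adjusted p under 0.05 in edgeR's quasi-likelihood test and a fold change of at least 1.5. Among all genes tested, 26.6% were called higher and 26.7% lower. The members' median log2 fold change was 1.02, against 0.0046 for all genes. In DKO preadipocytes 24 of 40 rose and 5 fell, against 27% and 28.6% of all genes, with medians of 1.17 and -0.0042. Of the members that rose, 23 rose in both genotypes, and the same 5 fell in both. Over all genes, 85.3% of those called higher in WT were also called higher in DKO, and 87.7% of those called lower were also lower. With scaling by library size alone the median of all genes was -0.16 in WT and -0.27 in DKO, which left 23 members higher and 6 lower in WT and 22 higher and 5 lower in DKO. With that scaling 41.5% of all called genes were higher in WT, against 49.9% here, and 37.1% in DKO, against 48.6%. Marker levels also changed over these days. In WT, summed macrophage markers were 130 to 467 CPM at day 0 and 3045 to 6168 CPM at day 9. Fibroblast markers were 19987 to 21636 CPM and 10150 to 10684 CPM, and adipocyte markers 186 to 449 CPM and 27935 to 29386 CPM. In DKO, macrophage markers were 38.2 to 339 CPM and 1371 to 2960 CPM. Their part in the carriers' changes was not tested.

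All 3 carboxylate carriers tested rose in both genotypes. Slc25a10, which exchanges malate or succinate for phosphate and is abundant in white fat, was at 14.3, 12.5 and 11.4 CPM in WT preadipocytes at day 0 and 195, 189 and 196 CPM at day 9, which do not overlap. Its log2 fold change was 3.93 ± 0.09 (SE), adjusted p = 2.49e-08, in WT and 3.80 ± 0.18 (SE) in DKO. Slc25a1, which exports citrate, went from 76.1, 76.9 and 80.0 CPM to 287, 286 and 324 CPM in WT, a log2 fold change of 1.96 ± 0.07 (SE), adjusted p = 2.22e-07. Slc25a11, a part of the malate-aspartate shuttle, went from 54.2 ± 3.78 CPM to 123 ± 6.81 CPM (1.19 ± 0.07 (SE), adjusted p = 3.09e-06). In both genotypes the libraries of the 2 days were apart for these genes, and the rise of Slc25a10 was the steepest after that of Slc25a34 in WT cells.

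Slc25a20 carries acylcarnitines into the matrix for fatty acid oxidation. It stood at 29.9, 35.3 and 33.5 CPM in WT preadipocytes at day 0 and 174, 182 and 179 CPM at day 9, and at 32.5, 32.1 and 31.2 CPM and 250.4, 243 and 297 CPM in DKO. Day 9 was above day 0 in every library, with a log2 fold change of 2.45 ± 0.08 (SE), adjusted p = 8.02e-08, in WT and 3.04 ± 0.11 (SE), adjusted p = 5.92e-06, in DKO.

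Among the carriers of coenzymes, Slc25a42, Slc25a51, Slc25a26, Slc25a17 and Slc25a32 rose in both genotypes. Slc25a42, a coenzyme A transporter, went from 5.95 ± 0.662 CPM to 22.6 ± 2.08 CPM (1.94 ± 0.12 (SE), adjusted p = 3.5e-06) in WT preadipocytes, and Slc25a51, which imports NAD, from 69.3 ± 4.90 CPM to 178 ± 10.99 CPM (1.37 ± 0.08 (SE), adjusted p = 1.98e-06). Slc25a26, which imports the methyl donor S-adenosylmethionine, rose by 1.98 ± 0.12 (SE), adjusted p = 2.48e-06, on the log2 scale. Smaller rises were those of Slc25a17, the peroxisomal coenzyme carrier, at 0.64 in WT and 0.73 in DKO, and Slc25a32, which imports folate and FAD, at 0.87 and 1.12 on the log2 scale.

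The carriers of glutamate and aspartate split. Slc25a22, which brings glutamate into the matrix, rose from 22.7, 28.0 and 21.2 CPM to 92.5, 71.1 and 90.3 CPM in WT (log2 fold change 1.83 ± 0.14 (SE), adjusted p = 1.43e-05). The aspartate-glutamate exchangers Slc25a12 and Slc25a13, the calcium-regulated arm of the malate-aspartate shuttle, both fell. Slc25a13 went from 8.92, 7.84 and 11.3 CPM to 2.51, 3.44 and 3.11 CPM in WT (-1.61 ± 0.19 (SE), adjusted p = 0.000131), and Slc25a12 from 29.5, 33.4 and 31.6 CPM to 18.6, 19.8 and 17.4 CPM (-0.75 ± 0.09 (SE), adjusted p = 9.46e-05). The ranges of the 2 days were apart for all 3 genes. Slc25a13 made up 36.3 ± 4.83% (SD, n = 3) of the summed RPKM of this pair at day 0 and 23.8 ± 2.702% at day 9 in WT, and 32.2 ± 1.32% and 14.7 ± 6.79% in DKO.

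Slc25a24 and Slc25a37 also fell, while related carriers rose. Among the calcium-regulated ATP-Mg/phosphate carriers, which set the pool of adenine nucleotides in the matrix, Slc25a24 fell from 63.9, 66.5 and 71.8 CPM to 24.6, 31.8 and 28.2 CPM in WT (-1.24 ± 0.10 (SE), adjusted p = 1.31e-05), while Slc25a23 and Slc25a25 rose by 1.74 and 0.94 on the log2 scale. Slc25a23 went from 9.999 ± 2.80% to 47.3 ± 3.24% of the summed RPKM of Slc25a23 and Slc25a24. Of the iron carriers, Slc25a28 rose by 1.299 and Slc25a37 fell by 0.92 ± 0.09 (SE) on the log2 scale (adjusted p = 3.88e-05), and Slc25a28 went from 22.0 ± 0.669% to 56.9 ± 4.32% of the pair's RPKM. Of the pyrimidine nucleotide carriers, Slc25a33 rose by 1.08 and Slc25a36 was at 0.38, not called. Of the glutathione carriers, Slc25a39 rose by 1.23 and Slc25a40 was at -0.0004, not called, and Slc25a39 made up 94.7 ± 0.659% of their summed RPKM already at day 0. The difference within these last pairs was not tested.

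Of the carriers of other amino acids, Slc25a44, a transporter of branched-chain amino acids, rose by 1.97 ± 0.09 (SE) on the log2 scale in WT and Slc25a38, which imports glycine for haem synthesis, was at 0.09, not called. Slc25a29, for basic amino acids, rose by 1.24, and the ornithine carrier Slc25a15 was at 0.38, not called. Slc25a46, an outer membrane protein of mitochondrial shape, rose by 0.72. The phosphate carrier Slc25a3 went from 258 ± 10.03 CPM to 332 ± 5.31 CPM in WT, a log2 fold change of 0.38 ± 0.06 (SE), adjusted p = 0.000705, under the fold threshold, and was called in DKO at 0.71 ± 0.08 (SE).

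Among the poorly characterised members, Slc25a34 went from 0, 1 and 0 counts in the WT preadipocyte libraries at day 0 to 523, 538 and 567 counts at day 9. The ratio of the summed counts, scaled for depth, was 1781 with an exact 95% interval of 319 to 70369.5, which covers counting error only and is wide because it rests on 1 read at day 0. In DKO it went from 6 to 3531 counts over the 3 libraries, a ratio of 786 (361 to 2143). Slc25a35 rose by 2.68 ± 0.14 (SE), adjusted p = 1.29e-06, on the log2 scale in WT. Slc25a43 fell, by 1.93 ± 0.39 (SE) on the log2 scale in WT (adjusted p = 0.00227) and by 2.97 ± 0.40 (SE) in DKO (adjusted p = 0.000677), from a level of 1.41 ± 0.389 CPM in WT at day 0. Slc25a43 never exceeded 40 counts in a library and had too few for a test between genotypes at day 9. It therefore entered these comparisons through its reads at day 0 and could only fall, though it is counted above among the members that fell. The direction of these 3 genes was the same under every alternative scaling and in both genotypes. For Slc25a34 and Slc25a43, whose place in the test rested on a single day, that sameness is no added support.

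In WT MEFs, from day 0 to day 12, 19 of 41 members tested rose and 1 fell, against 15.8% and 14.3% of all genes tested, and the median log2 fold change was 0.39 against -0.00048. In DKO MEFs 18 of 40 rose and 3 fell, against 15.4% and 9.41% of all genes, with medians of 0.57 and -0.01. With scaling by library size alone the median of all genes was -0.15 in WT and -0.26 in DKO, and the split became 15 higher and 3 lower in WT and 16 higher and 5 lower in DKO. With it, 40.2% of all called genes were higher in WT, against 52.6% here, and 37.0% in DKO, against 62.0%. All 19 members that rose in WT MEFs were among the 25 that rose in WT preadipocytes, and 17 of them rose in DKO MEFs too. Of all genes called higher in WT MEFs, 74.6% were also higher in WT preadipocytes and 68.5% in DKO MEFs. The 2 cultures share no library. Marker levels changed over these days too. In WT MEFs, summed macrophage markers were 7026 to 9175 CPM at day 0 and 4634 to 4684 CPM at day 12. Fibroblast markers were 19843 to 23100 CPM and 14786 to 15355 CPM, and adipocyte markers 969 to 1159 CPM and 18724 to 19204 CPM. Their part in the carriers' changes was not tested.

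The steepest rises in MEFs belonged to the same kinds of carrier. Slc25a10 stood at 20.5, 23.5 and 24.1 CPM in WT MEFs at day 0 and 197, 188 and 177 CPM at day 12 (log2 fold change 3.05 ± 0.06 (SE), adjusted p = 3.24e-13), Slc25a1 rose by 2.33 ± 0.06 (SE), and Slc25a11 was at 0.37 ± 0.05 (SE), not called in WT, and at 0.92 ± 0.09 (SE), called, in DKO. Slc25a20 went from 31.8, 28.9 and 30.5 CPM to 112, 108 and 111 CPM (1.86 ± 0.05 (SE), adjusted p = 7.2e-13). Day 12 lay above day 0 in every library for these carriers. Of the coenzyme carriers, Slc25a42 rose by 1.04 ± 0.07 (SE) in WT and 1.67 ± 0.12 (SE) in DKO on the log2 scale, and Slc25a51 by 0.72 ± 0.04 (SE) and 0.95 ± 0.08 (SE). Slc25a25 rose by 1.93 ± 0.07 (SE) in WT MEFs, Slc25a35 by 1.70 ± 0.13 (SE), Slc25a44 by 1.48 ± 0.05 (SE) and Slc25a5 by 1.34 ± 0.04 (SE). Slc25a34 went from 10 to 279 counts over the 3 WT libraries, a depth-scaled ratio of 31.4 (95% counting interval 16.8 to 66.1), and from 4 to 612 in DKO, a ratio of 215 (83.4 to 789.8). Few members went down. Slc25a13 fell, from 6.02, 6.79 and 7.42 CPM to 2.41, 2.58 and 2.64 CPM in WT (-1.40 ± 0.15 (SE), adjusted p = 2.15e-06), and in DKO Slc25a13, Slc25a12 and Slc25a37 fell by 1.76 ± 0.31 (SE), 0.87 ± 0.10 (SE) and 0.71 ± 0.12 (SE) on the log2 scale. Slc25a3 was at 0.39 and 0.37 and Slc25a4 at 0.01 and 0.24, none called.

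**Figure D3:**
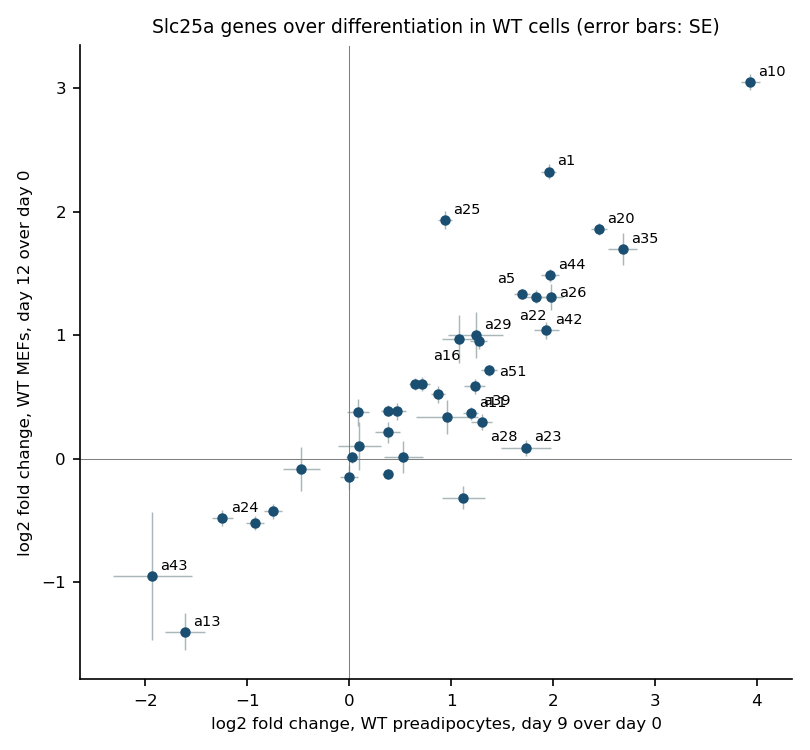
Log2 fold change of each carrier over differentiation in WT preadipocytes (horizontal axis, day 9 over day 0) and WT MEFs (vertical axis, day 12 over day 0), with SE bars, for 38 members tested in both, Slc25 being left off the labels. Slc25a34 is not drawn, since its fitted change rests on 1 read at day 0 in preadipocytes. Slc25a10 lies farthest to the upper right at 3.93 and 3.05, and Slc25a13 is low on both axes at -1.61 and -1.40.

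The summed level of the family followed the same course. In preadipocytes it was 1759.7, 1733 and 1716 CPM in the WT and 1731, 1677 and 1723 CPM in the DKO libraries at day 0, which overlap. At day 3 it was 1833, 1948 and 1965 CPM in WT and 2098, 2270 and 2222 CPM in DKO. At day 6 it was 3297, 3841 and 3504 CPM in WT and 4191, 5173 and 4749.9 CPM in DKO. At day 9 it was 3460.1, 3498 and 3604 CPM in WT and 4093, 4321 and 4716 CPM in DKO. At days 3, 6 and 9 every DKO library was above every WT library. In MEFs the sum was 1796 ± 24.8 CPM in WT at day 0 (mean ± SD, n = 3), with DKO at 1834 ± 65.7 CPM, and 3077, 2948 and 2951 CPM and 3708, 3853 and 3718 CPM in the libraries of day 12, with no overlap. At day 4 it was 2438, 2244 and 2237 CPM in WT and 2479, 2371 and 2627 CPM in DKO MEFs. At day 8 it was 2502, 2296 and 2529 CPM and 3282, 2951 and 2415 CPM, and the genotypes overlapped at both of these days. The ratio of the DKO to the WT mean was 1.33 at day 6 and 1.24 at day 9 in preadipocytes and 1.26 at day 12 in MEFs. Scaled by library size alone these ratios were 1.21, 1.14 and 1.19. The share of reads from the 13 protein-coding genes of mitochondrial DNA moved with them, at 6.48 to 7.04% of counts in WT and 7.86 to 9.01% in DKO preadipocytes at day 6 and 4.02 to 4.18% and 4.86 to 5.46% in MEFs at day 12, and its part in the carriers' values was not tested.

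The study asked whether loss of HMGN1 and HMGN2 changes how these cells turn into fat, and WT and DKO were compared at each day. At day 0 in preadipocytes, 0 of 39 members tested were called by edgeR, and 0 by DESeq2 and by limma-voom, against 0.218% of all genes by edgeR. In edgeR 1 member had an unadjusted p under 0.05, against 7.86% of all genes. At day 3, edgeR and limma-voom again called 0 of 39, against 0.337% of all genes, but 13 had an unadjusted p under 0.05 (12.2% of all genes), 12 of them higher in DKO, and the members' median was 0.20 against -0.01 for all genes. DESeq2 called 3 at day 3 (2.7% of all genes), all higher in DKO, among them Slc25a10 and Slc25a26, which are named here after their values were seen. Slc25a10 was at 23.3, 40.6 and 32.5 CPM in WT and 57.4, 71.5 and 59.0 CPM in DKO at day 3, which did not overlap (log2 fold change 0.97 ± 0.21 (SE), adjusted p = 0.144). Slc25a26 was at 4.19, 4.06 and 3.75 CPM in WT and 7.35, 9.24 and 8.46 CPM in DKO, which also did not overlap (1.07 ± 0.14 (SE), adjusted p = 0.0518), the smallest adjusted p of the family at that day. Adipocyte markers at day 3 summed to 777 to 2907 CPM in WT and 3968 to 5526 CPM in DKO, WT replicate 1 being the lowest, and their part was not tested.

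At day 6, 9 of 39 members were higher in DKO preadipocytes and 1 was lower, against 5.03% and 6.53% of all genes tested. The members' median log2 fold change was 0.25 against -0.01, and 21 had an unadjusted p under 0.05, against 37.2% of all genes. DESeq2 called 10 and limma-voom 11, for which no share of all genes was taken at this day. With scaling by library size alone the median of all genes was -0.11, 7 members were higher and 1 lower, and 28.8% of all called genes were higher, against 43.5% here. The calls of Slc25a20, Slc25a22, Slc25a24, Slc25a33, Slc25a34, Slc25a35 and Slc25a42 held under all 12 alternatives with a fold threshold tried, including the removal of each library. The marker levels given above moved with genotype at this day, and their part in these differences was not tested.

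The largest of these differences among the better known carriers was in Slc25a22, the glutamate carrier, at 55.5, 68.5 and 58.9 CPM in WT and 139.6, 133 and 181 CPM in DKO libraries. The groups did not overlap, and the log2 fold change was 1.28 ± 0.14 (SE), adjusted p = 0.00249. Slc25a20, the acylcarnitine carrier, was at 125, 162 and 142 CPM in WT and 219.6, 270.0 and 267 CPM in DKO, every DKO library being above every WT library (0.78 ± 0.12 (SE), adjusted p = 0.00521). Slc25a42, the coenzyme A transporter, was at 33.9, 39.3 and 38.4 CPM in WT and 57.2, 62.1 and 74.3 CPM in DKO, again apart (0.76 ± 0.11 (SE), adjusted p = 0.00506).

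Slc25a39, which carries glutathione, was at 183, 237 and 204 CPM in WT and 296, 348 and 359 CPM in DKO (0.65 ± 0.12 (SE), adjusted p = 0.00942). The groups were apart, yet the call did not hold with scaling by library size alone, nor when WT replicate 1, WT replicate 3 or DKO replicate 3 was left out, where the log2 fold change was 0.57, 0.64 and 0.58. Slc25a33, which brings pyrimidine nucleotides to mitochondrial DNA and RNA synthesis, was at 10.4, 12.8 and 10.9 CPM in WT and 18.8, 19.5 and 24.1 CPM in DKO (0.84 ± 0.13 (SE), adjusted p = 0.00609). Its related carrier Slc25a36 was at -0.10 on the log2 scale, not called, and Slc25a33 made up 34.9 ± 4.01% of the pair's RPKM in WT and 50.5 ± 2.47% in DKO.

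Of the ATP-Mg/phosphate carriers Slc25a23 was higher and Slc25a24 lower in DKO, and Slc25a25 was at 0.11, not called. Slc25a23 was at 26.4, 27.5 and 24.6 CPM in WT and 42.1, 39.7 and 50.4 CPM in DKO (0.72 ± 0.11 (SE), adjusted p = 0.00522), and its call was lost in 1 fit over all days (adjusted p = 0.12). Slc25a24, the only member lower in DKO at this day, was at 15.0, 13.1 and 13.4 CPM in WT and 9.45, 7.53 and 7.18 CPM in DKO (-0.81 ± 0.14 (SE), adjusted p = 0.00821). Neither gene's libraries overlapped between genotypes, and Slc25a23 made up 55.1 ± 2.28% of their summed RPKM in WT and 77.9 ± 3.88% in DKO.

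Among the poorly characterised members, Slc25a34 was at 11.5, 21.7 and 12.8 CPM in WT and 49.4, 45.8 and 52.9 CPM in DKO, with no overlap and the largest log2 fold change of the family, 1.65 ± 0.23 (SE), adjusted p = 0.0065. Slc25a35 was at 10.1, 15.0 and 9.81 CPM in WT and 23.6, 21.8 and 28.8 CPM in DKO, also apart (1.06 ± 0.18 (SE), adjusted p = 0.00926), a gene whose exons overlap Rangrf. Of the 5 carriers with the highest RPKM at day 6, Slc25a39 was called, as given above, and Slc25a5, Slc25a4, Slc25a1 and Slc25a10 were not. Slc25a5 was at 596, 713 and 644 CPM in WT and 702, 1016 and 788 CPM in DKO, which overlapped (0.32 ± 0.14 (SE), adjusted p = 0.133), Slc25a4 had a log2 fold change of 0.40 ± 0.10 (SE), adjusted p = 0.0296, Slc25a1 one of 0.52 ± 0.13 (SE), adjusted p = 0.0263, and Slc25a51 one of 0.49 ± 0.12 (SE), adjusted p = 0.0234, the last 3 under the fold threshold. Slc25a10 and Slc25a3 stood at 0.10 and 0.04 on the log2 scale, and the direction of Slc25a10 turned to -0.0046 with scaling by library size alone. Slc25a11 was at 0.34 ± 0.11 (SE), adjusted p = 0.0542. Slc25a12 and Slc25a13, which fell over differentiation, were at -0.31 ± 0.15 (SE), adjusted p = 0.155, and -0.65 ± 0.24 (SE), adjusted p = 0.082, not called.

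**Figure D4:**
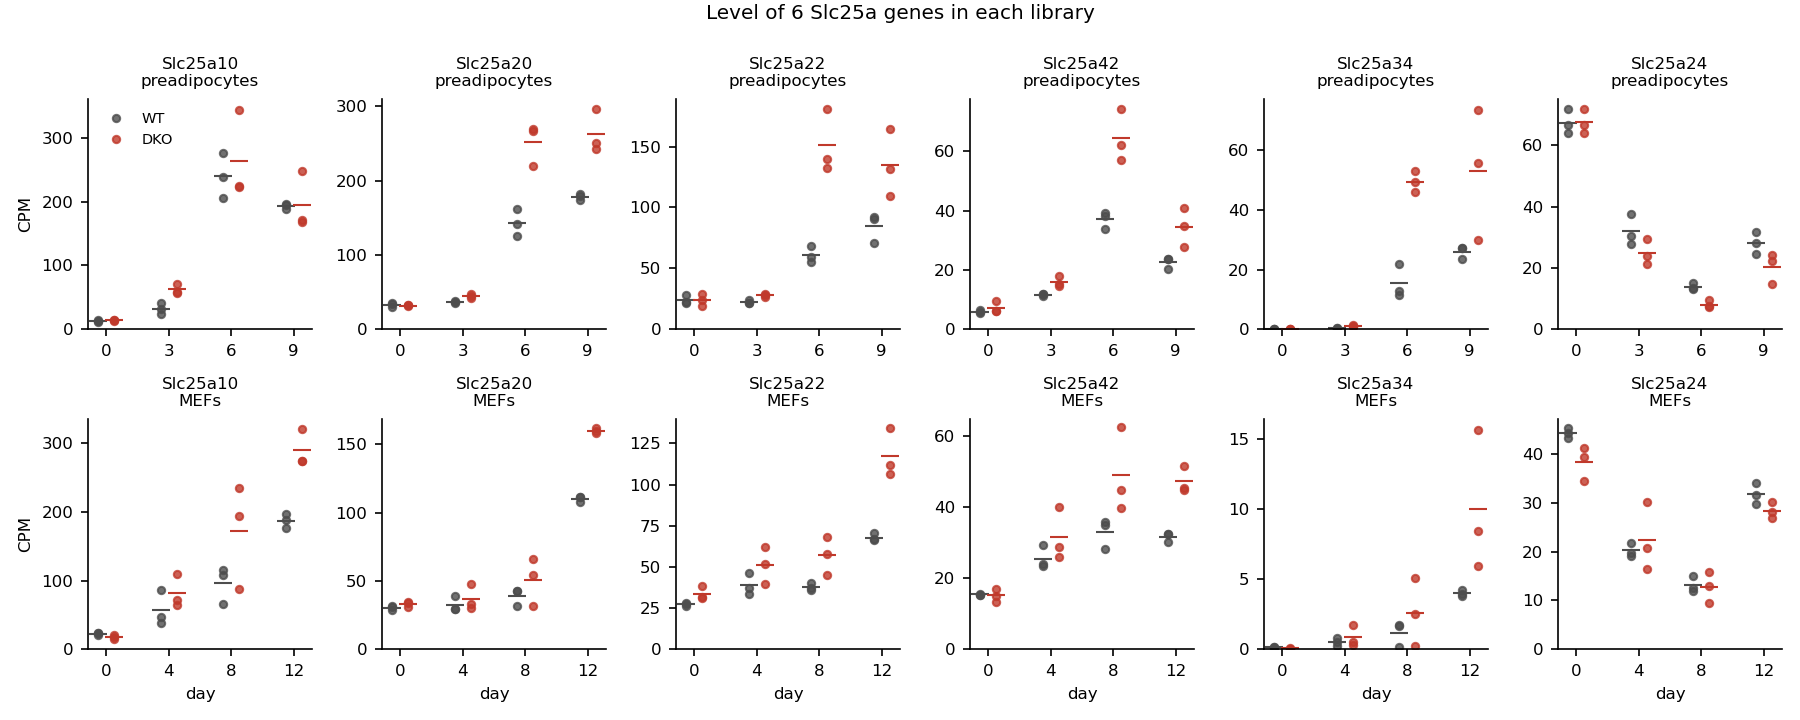
Level of 6 carriers in CPM (vertical axis, from 0) at each day (horizontal axis) in preadipocytes (upper row) and MEFs (lower row), with 1 point per library and a dash at the mean, WT in grey and DKO in red. At day 6 in preadipocytes the DKO points of Slc25a20, Slc25a42, Slc25a22 and Slc25a34 lie above all WT points and those of Slc25a24 below, while those of Slc25a10 overlap the WT points.

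At day 9, edgeR called 0 of 39 members in preadipocytes, limma-voom 0 and DESeq2 3 (5.63% of all genes), Slc25a22 and Slc25a34 among them, against 1.24% of all genes by edgeR. Of the members, 25 had an unadjusted p under 0.05 in edgeR, against 27.1% of all genes, 21 of them higher in DKO, and the median was 0.27 against -0.0018 for all genes. Slc25a20 alone had an adjusted p under 0.05, at 174, 182 and 179 CPM in WT and 250.4, 243 and 297 CPM in DKO, with no overlap but a change under the fold threshold (0.53 ± 0.09 (SE), adjusted p = 0.0424). DKO replicate 2 had the highest fibroblast markers of its group (10982 CPM, against 4718 and 3426 CPM). Its adipocyte markers were the lowest, at 35813 CPM against 36816 and 43560 CPM, yet above the 27935 to 29386 CPM of WT. Its macrophage markers were also the lowest, at 1371 CPM against 2960 and 1828 CPM. Without this library, edgeR called 8 members and 9.72% of all genes. They included Slc25a20, Slc25a22, Slc25a23, Slc25a33, Slc25a34 and Slc25a42, higher in DKO, and Slc25a13, lower.

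That library shows in single carriers. Slc25a34 was at 27.3, 23.4 and 27.2 CPM in WT and 55.5, 30.0 and 73.5 CPM in DKO at day 9 (1.00 ± 0.30 (SE), adjusted p = 0.103), and Slc25a13 at 2.51, 3.44 and 3.11 CPM in WT and 0.865, 2.58 and 1.08 CPM in DKO (-1.03 ± 0.41 (SE), adjusted p = 0.159). In both, DKO replicate 2 was the DKO library nearest to WT, and for Slc25a13 the groups overlapped. Slc25a22 was at 92.5, 71.1 and 90.3 CPM in WT and 132, 109 and 165 CPM in DKO, which did not overlap (0.64 ± 0.17 (SE), adjusted p = 0.0777). Slc25a42 had a log2 fold change of 0.58 ± 0.15 (SE), adjusted p = 0.0751, Slc25a51 one of 0.40 ± 0.09 (SE), adjusted p = 0.0605, and Slc25a5 one of 0.31 ± 0.08 (SE), adjusted p = 0.072. Those of Slc25a10, Slc25a1 and Slc25a3 were -0.02, 0.16 and 0.19, and those of Slc25a4, Slc25a11 and Slc25a12 were 0.30, 0.27 and -0.24.

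In MEFs, edgeR called 0 of 40 members at day 0, against 0.102% of all genes tested, 0 at day 4, against 0.0905%, and 0 at day 8, against 0.0595%. DESeq2 and limma-voom called 0 at each of these days as well, and edgeR's unadjusted p was under 0.05 for 4, 0 and 6 members, against 9.28%, 5.91% and 8.57% of all genes. The libraries of days 4 and 8 were uneven. At day 8, Slc25a10 was at 108, 66.4 and 115 CPM in WT and 235, 194 and 87.1 CPM in DKO, where WT replicate 2 and DKO replicate 3, the libraries with the lowest adipocyte markers (4091 and 4759 CPM), were also the lowest of their groups for this gene. Its log2 fold change was 0.81 ± 0.39 (SE), adjusted p = 0.634. Slc25a20 was at 0.36 ± 0.28 (SE), Slc25a5 at 0.33 ± 0.19 (SE) and Slc25a42 at 0.55 ± 0.19 (SE), not called.

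At day 12 in MEFs, 6 of 40 members were higher in DKO and 2 were lower, against 3.92% and 4.05% of all genes tested, and the median log2 fold change was 0.16 against 0.0015. Without the fold threshold 26 members passed, 21 higher and 5 lower, a setting for which no share of all genes was taken. The unadjusted p was under 0.05 for 29 of the 40, against 42.3% of all genes. DESeq2 called 8 and limma-voom 6. The 3 WT libraries of this day were unusually alike, with a chi-square, divided by its degrees of freedom, between pairs of 2.18 to 3.58 across genes, where counting noise alone gives 1 and the other groups of libraries reached up to 168. In 1 fit over all days of the MEFs, which shares the spread among days, 3 members were called, Slc25a22, Slc25a26 and Slc25a44. Scaling by library size alone left 3 higher and 2 lower, and 38.5% of all called genes higher, against 49.2% here. Without WT replicate 3, and likewise without DKO replicate 2, the count was 5. For DESeq2, limma-voom and the other alternatives at this day no share of all genes was taken. The adipocyte, fibroblast and macrophage markers given above moved with genotype at this day too, and their part was not tested.

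Among the carriers higher in DKO, Slc25a44 and Slc25a22 move amino acids and Slc25a26 a coenzyme. Slc25a26, for S-adenosylmethionine, was at 14.3, 13.9 and 15.0 CPM in WT and 25.4, 26.9 and 24.4 CPM in DKO (0.80 ± 0.08 (SE), adjusted p = 1.13e-06), and Slc25a44, for branched-chain amino acids, at 104, 107 and 105 CPM in WT and 155, 174 and 166 CPM in DKO (0.62 ± 0.05 (SE), adjusted p = 6.05e-08). In both, every DKO library was above every WT library. Slc25a44 was near the fold threshold, and its call was lost without DKO replicate 2, where the log2 fold change was 0.58, and with scaling by library size alone. Slc25a22, the glutamate carrier, was at 70.4, 66.0 and 66.6 CPM in WT and 112, 135 and 107 CPM in DKO, with no overlap (0.78 ± 0.08 (SE), adjusted p = 7.63e-05).

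Slc25a10, the dicarboxylate carrier, was at 197, 188 and 177 CPM in WT and 274, 321 and 274 CPM in DKO, with no overlap (0.61 ± 0.06 (SE), adjusted p = 1.75e-05). Its log2 fold change was also near the threshold, and the call was lost without WT replicate 3 (0.57), without DKO replicate 2 (0.52), with limma-voom (0.55) and with scaling by library size alone (0.55). Slc25a34 was at 4.24, 3.78 and 3.92 CPM in WT and 8.41, 15.7 and 5.92 CPM in DKO, apart but widely spread in DKO (1.31 ± 0.39 (SE), adjusted p = 0.0499), and that call was lost without any 1 of WT replicates 1, 2 and 3 or without DKO replicate 1, and held under 5 of 12 alternatives.

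The 2 members lower in DKO both carry glutamate. Slc25a18, another glutamate carrier of low level, was at 1.97, 2.61 and 2.11 CPM in WT and 1.183, 0.463 and 0.869 CPM in DKO (-1.41 ± 0.32 (SE), adjusted p = 0.0027), and its exons overlap those of Atp6v1e1 over 1.67% of their bases. Slc25a13, the aspartate-glutamate exchanger, was at 2.41, 2.58 and 2.64 CPM in WT and 1.69, 0.927 and 1.68 CPM in DKO (-0.84 ± 0.26 (SE), adjusted p = 0.0194). Neither gene's libraries overlapped between genotypes. The call of Slc25a13 was lost when WT replicate 2 or 3 or DKO replicate 2 was left out, with adjusted p of 0.068, 0.069 and 0.066. Its partner Slc25a12 was at -0.43 ± 0.08 (SE), adjusted p = 0.000361, under the fold threshold, and Slc25a13 made up 13.2 ± 0.543% of the pair's RPKM in WT and 10.1 ± 2.38% in DKO.

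Many other carriers passed the adjusted p in MEFs at day 12 with smaller changes. Slc25a20 was at 112, 108 and 111 CPM in WT and 159.7, 162 and 158 CPM in DKO, with no overlap (0.52 ± 0.04 (SE), adjusted p = 9.66e-08), and Slc25a5 at 389.5, 376 and 384 CPM in WT and 496, 515 and 497 CPM in DKO, also apart (0.37 ± 0.04 (SE), adjusted p = 3.07e-06). On the log2 scale Slc25a42 was higher by 0.56 ± 0.07 (SE), Slc25a1 by 0.48 ± 0.06 (SE), Slc25a11 by 0.33 ± 0.04 (SE), Slc25a51 by 0.27 ± 0.04 (SE) and Slc25a3 by 0.12 ± 0.04 (SE), each under the fold threshold and with an adjusted p under 0.05. Slc25a4 was at 0.09 ± 0.04 (SE), adjusted p = 0.109.

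**Figure D5:**
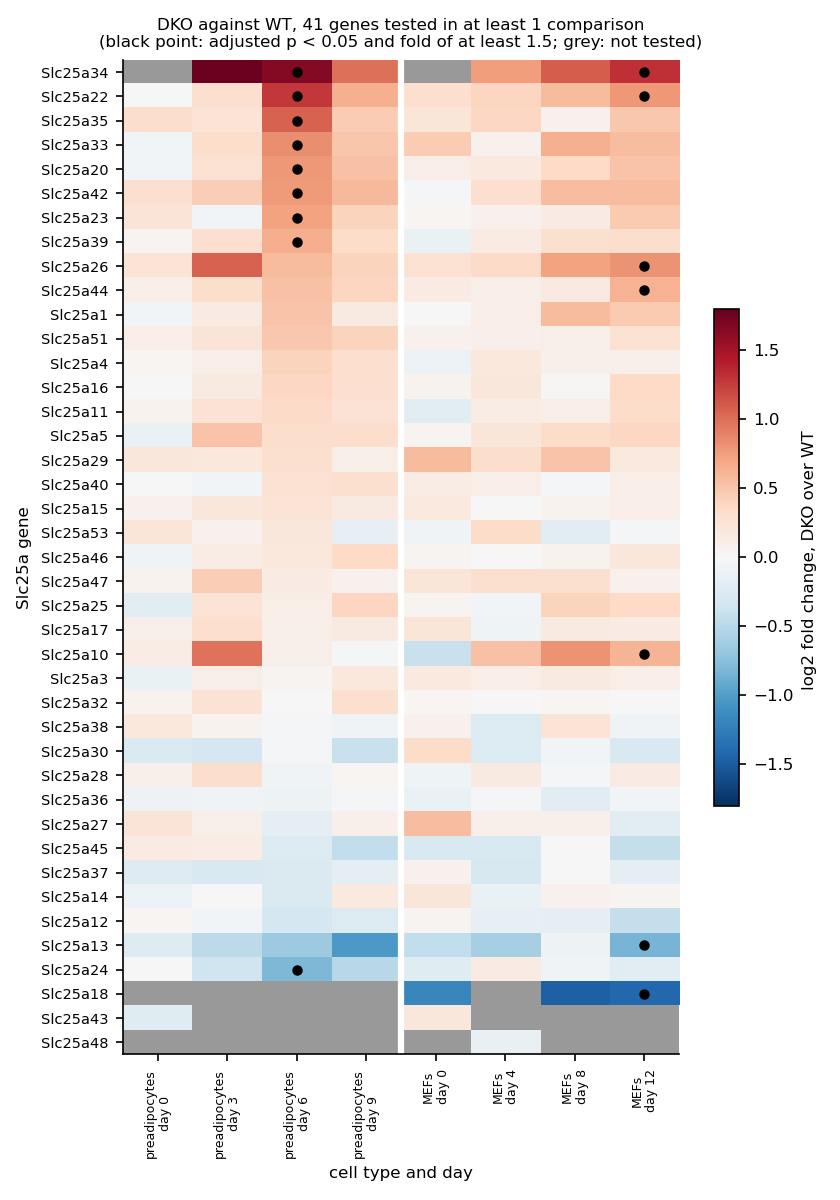
Log2 fold change of DKO over WT for each carrier (rows, ordered by the value at day 6 in preadipocytes) at each day in preadipocytes (left columns) and MEFs (right columns), for 41 members tested in at least 1 comparison, with red for higher and blue for lower in DKO, grey for not tested and a black point for a call. The calls lie at day 6 in preadipocytes and at day 12 in MEFs, in both directions, and at no other day.

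Slc25a22 and Slc25a34 were among the 3 members higher in DKO at both day 6 in preadipocytes and day 12 in MEFs, which is 3 of the 9 called higher in the former and 3 of the 6 in the latter. Over all genes, 222 were called higher in both, 30.0% of the 739 in preadipocytes and 36.9% of the 601 in MEFs. No member was lower in both, and among all genes 204 were. Slc25a20, Slc25a23, Slc25a33, Slc25a35, Slc25a39 and Slc25a42 were called higher, and Slc25a24 lower, in preadipocytes only. Slc25a10, Slc25a26 and Slc25a44 were called higher, and Slc25a13 and Slc25a18 lower, in MEFs only, Slc25a18 being untested in preadipocytes at day 6. In MEFs at day 12 Slc25a20 and Slc25a42 had an adjusted p under 0.05 in edgeR's fit of that day, where they missed the fold threshold alone. Across the alternatives that adjusted p reached 0.151 for Slc25a20 and 0.056 for Slc25a42. Over the same alternatives the log2 fold change in MEFs was 0.39 to 0.52 for Slc25a23, 0.42 to 0.68 for Slc25a33 and 0.42 to 0.52 for Slc25a35. It was 0.26 to 0.36 for Slc25a39 and -0.25 to -0.14 for Slc25a24, and of these genes only Slc25a33 was called, under 2 of 12. The difference between the cultures was not tested.

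Whether the DKO effect differed from that at day 0 was tested through the interaction term of genotype with day. The days tested were day 6 in preadipocytes and day 12 in MEFs, in each culture the only day at which edgeR called members between genotypes. No other day was tested in this way, so these results concern days with large effects. In preadipocytes the effect at day 6 was above that at day 0 for 3 of 40 members and below it for 1, against 2.04% and 1.45% of all genes. The 3 were Slc25a22, by 1.303 ± 0.24 (SE), adjusted p = 0.0219, Slc25a33, by 0.92 ± 0.23 (SE), adjusted p = 0.0492, and Slc25a20, by 0.86 ± 0.15 (SE), adjusted p = 0.019, on the log2 scale, and Slc25a24 was lower by 0.78 ± 0.15 (SE) (adjusted p = 0.0223). All 4 had overlapping WT and DKO levels at day 0, for example 29.9, 35.3 and 33.5 CPM in WT and 32.5, 32.1 and 31.2 CPM in DKO for Slc25a20. The adjusted p were close to the threshold, and the count ranged from 0 to 6 when single libraries were left out. WT replicate 1, WT replicate 3 and DKO replicate 3 of day 6 were among those whose removal ended the calls of all 4, with adjusted p for Slc25a22 of 0.077, 0.075 and 0.056, and the largest adjusted p for Slc25a33 was 0.14 without WT replicate 1. The call of Slc25a22 was also lost without WT replicate 1 or 2 or DKO replicate 3 of day 0, that of Slc25a24 without WT replicate 1 of day 0, and that of Slc25a33 without any of these, WT replicate 3 or DKO replicate 2 of day 0, or DKO replicate 2 of day 6. With a replicate block the calls of Slc25a24 (adjusted p = 0.071) and Slc25a33 (0.078) were lost as well, and that of Slc25a33 also with library size scaling (0.069), limma-voom (0.099) and no low-count filter (0.067), so that it held under 4 of 17 alternatives.

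In MEFs the effect at day 12 was above that at day 0 for 3 of 41 members and below it for 0, against 1.17% and 0.245% of all genes. By edgeR 2 members were lower at an unadjusted p under 0.05, a p that 15.5% of all genes had in either direction, and DESeq2 and limma-voom called 0 lower. Slc25a10 differed most, by 1.04 ± 0.16 (SE), adjusted p = 0.00888, and was at 20.5, 23.5 and 24.1 CPM in WT and 19.9, 17.4 and 14.4 CPM in DKO at day 0, WT being above DKO with no overlap, the reverse of day 12, although the difference at day 0 was itself not called (-0.40 ± 0.14 (SE), adjusted p = 0.528). Slc25a42 differed by 0.62 ± 0.13 (SE), adjusted p = 0.0342. The call of Slc25a42 was lost without any one library of WT or DKO at day 12, any one of WT at day 0 or DKO replicate 1 or 3 of day 0. It was also lost with library size scaling (adjusted p = 0.091), limma-voom (0.101), no low-count filter (0.066) and a replicate block (0.076), and held under 2 of 17 alternatives. The call of Slc25a10 was lost without WT replicate 3 of day 0 (adjusted p = 0.053). The DKO libraries of day 0 were uneven, with summed fibroblast markers of 24568, 8871 and 12686 CPM. Macrophage markers were already abundant in WT MEFs at day 0, at 7026 to 9175 CPM, against 6402 to 6570.5 CPM in DKO, and their part in these differences was not tested.

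Other mitochondrial transporters were taken from a list of 28 genes chosen with earlier results of these data known. At day 6 in preadipocytes 6 were higher in DKO and 2 lower, against 5.03% and 6.53% of all genes tested. Their median log2 fold change was 0.34 against -0.01 for all genes. At day 12 in MEFs 5 were higher, against 3.92% of all genes, with a median of 0.21. At day 6 these included the uncoupling protein Ucp1, at 2.38 ± 0.14 (SE), adjusted p = 0.00018, the muscle and brown fat form of carnitine palmitoyltransferase Cpt1b, which makes the acylcarnitine that Slc25a20 carries, at 1.99 ± 0.17 (SE), adjusted p = 0.00169, and the pyruvate carrier subunit Mpc1, at 0.71 ± 0.13 (SE), adjusted p = 0.0108. The 2 lower at day 6 were Mcub, an inhibitory subunit of the calcium uniporter, at -0.88, and the sideroflexin Sfxn3, at -0.93. Over time in WT preadipocytes 18 of the 28 rose and 4 fell, against 26.6% and 26.7% of all genes. In DKO preadipocytes 19 rose and 4 fell, against 27% and 28.6%. In WT MEFs 10 rose and 1 fell, against 15.8% and 14.3%, and in DKO MEFs 15 and 1, against 15.4% and 9.41%.

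The 13 genes tested from a list of the machinery that inserts carriers into the inner membrane, such as the Timm22 channel and its Timm9 and Timm10 chaperones, gave 0 calls between genotypes at day 6 in preadipocytes and at day 12 in MEFs by edgeR. At each of these days 12 of the 13 were higher in DKO, with medians of 0.29 and 0.20. Their unadjusted p was under 0.05 for 7 and 10 of them, against 37.2% and 42.3% of all genes, and DESeq2 and limma-voom called 0 at both days. Over time 9 of the 13 rose in WT preadipocytes and 12 in DKO, against 26.6% and 27% of all genes. In MEFs 6 rose in WT and 9 in DKO, against 15.8% and 15.4% of all genes, and the difference between genotypes was not tested.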

How the data were processed

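RNA was sequenced as 50-base strand-specific paired ends. The labels give its type as polyadenylated and the study's methods name a stranded total RNA kit, so the selection step is uncertain. Per the submitters' processing notes and the study's methods, the authors used bcl2fastq 2.17, cutadapt 1.18, STAR 2.7.0f and RSEM 1.3.0 on mouse genome mm10, and deposited RSEM expected counts per gene with no normalization. The annotation release and RSEM's strand setting are not given in the sources used here. RSEM divides reads shared by similar genes, so expected counts need not be whole, and they were rounded here. All 55450 gene identifiers matched the annotation used for symbols and exon lengths (GENCODE M21).

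Each comparison was fitted over all genes in R 4.3.3 with edgeR 4.0.16 (filterByExpr, TMM scaling, robust quasi-likelihood test, Benjamini-Hochberg adjustment), using the libraries of its groups alone and no replicate block. A gene was called where its adjusted p was under 0.05 and its fold at least 1.5, as in the study. CPM were TMM-scaled within a culture, and RPKM were CPM per kilobase of exon. Log2 fold changes come from the fit. Their SE was derived as the absolute log2 fold change over the square root of the test's F statistic. Differences between days in the DKO effect were tested as interactions. The alternatives were no fold threshold, library size scaling, DESeq2 1.42.0, limma-voom (limma 3.58.1) with quantile normalization, no low-count filter, 1 fit over all days, a replicate block and the removal of each library.

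The members, functional groups, gene lists and rule for named genes were chosen with earlier results of these data known. The rule named the major carriers Slc25a1, Slc25a3, Slc25a4, Slc25a5, Slc25a10, Slc25a11, Slc25a12, Slc25a13, Slc25a20, Slc25a42 and Slc25a51 always, up to 8 called members in each direction of a comparison (by p between genotypes, by fold change between days), the 6 of highest RPKM at the last day of WT cells and those called in an interaction. Further members are named from their functional groups. Counts, sums and medians over the family cover all members, but 1 member is not reported here singly or drawn.

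Depth was 18962483 to 36006696 counts per library. On simulated counts for day 6 of preadipocytes, edgeR recovered 94.8% of 192 changed genes, with 5.7% of its calls false. In the preadipocyte interaction it recovered 70.7% of 198, with 4.76% of its calls false. Of the calls of DESeq2, 11.8% were false for day 6 and 16.3% in that interaction. For WT MEFs over time the false share was 3.08% with DESeq2 and 3.54% with edgeR. The changes put in were large, those edgeR recovered having a median absolute log2 fold change of 2.01 for day 6 and 2.04 in the interaction. The differences of carriers between genotypes given above were smaller, so these shares do not tell how often such differences were found or missed. Counting intervals cover counting error only.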

Additional observations from a re-analysis of the deposited data

Results flagged for a closer look

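For 6 carriers the difference between DKO and WT at a late day differed from that at day 0 by a test of the interaction itself (edgeR, adjusted over all genes). In preadipocytes, day 6 against day 0, the log2 difference of the DKO effects was 1.303 for Slc25a22 (adjusted p = 0.0219), 0.92 for Slc25a33 (adjusted p = 0.0492), 0.86 for Slc25a20 (adjusted p = 0.019) and -0.78 for Slc25a24 (adjusted p = 0.0223). In MEFs, day 12 against day 0, it was 1.04 for Slc25a10 (adjusted p = 0.00888) and 0.62 for Slc25a42 (adjusted p = 0.0342). Each of the 6 lost its call when some single libraries were left out, as given with the interaction results above. Groups of 3 libraries are too small to test single libraries for standing apart.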

How the results depend on the processing

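Of 1787 alternative values for 146 pairs of named carrier and comparison, 1648 kept direction and side of the threshold, 112 kept the direction but were no longer called, 25 became called and 2 turned direction. Both were Slc25a10 between genotypes at day 6 in preadipocytes (0.10), at -0.0046 with library size scaling and from -0.12 to 0.20 when each library was left out in turn (-0.12 without DKO replicate 2), and none of these values was called. Counts of called carriers moved by over 1.5 times as follows. Without the fold threshold there were 16 in preadipocytes at day 6 (10 with it), 1 at day 9 (0), 26 in MEFs at day 12 (8), 33 over time in WT MEFs (20) and 5 in the MEF interaction (3). The share of all genes was not taken at that setting. In the same order, 37.2%, 27.1%, 42.3%, 62.9% and 15.5% of all genes had an unadjusted p under 0.05. DESeq2 called 3 at day 3 and 3 at day 9 (0 each), and without the low-count filter 1 was called at each. The fit over all days gave 3 at day 3, 5 at day 9 and 3 in MEFs at day 12. Library size scaling gave 5 in MEFs at day 12 and 1 in the MEF interaction. Leaving out 1 library in turn gave 8 to 12 at day 6, 0 to 8 at day 9, 5 to 9 in MEFs at day 12, 0 to 6 in the preadipocyte interaction (4 with all libraries) and 0 to 4 in that of MEFs. Shares of all genes were taken for DESeq2 at days 3 and 9 and for day 9 without DKO replicate 2, and for no other of these settings. The causes were not tested, beyond the removed threshold, genes or library that defines each setting. Same-numbered libraries of the genotypes did not deviate together at all days (correlations of -0.267 to 0.543 in preadipocytes and -0.687 to 0.602 in MEFs), so the numbers were not taken to pair them. Within DKO preadipocytes, same-numbered libraries of days 0 and 3 did correlate, at 0.562, 0.407 and 0.501, a comparison of days that was not tested here. With a replicate block 3 carriers were called at day 3, 2 in the preadipocyte interaction and 1 in that of MEFs, and the other counts stayed within 1.5 times. The share of Slc25a4 in its pair with Slc25a5 was higher on CPM than on RPKM in all 16 groups, as its exon length is divided out in RPKM. At 3 libraries a group, members with few reads, such as Slc25a18, Slc25a34 and Slc25a43, were measured least precisely.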
